A study of Mus musculus with 29 samples.

Results

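A set of 9 interferon response genes was followed through liver and hippocampus of mice put on 4 feeding regimens after a high-fat diet. The set held the transcription factor genes Irf5 and Irf7, the antiviral effector genes Ifit1, Ifit3, Isg15, Oasl2, Rsad2 and Bst2, and the guanylate binding protein gene Gbp6. They were chosen by name, with earlier results of these data known, and all 9 were found by symbol among the 24346 genes of the expression table. Male C57BL/6J mice, an inbred strain, were fed a high-fat diet for 10 weeks and then kept for 4 weeks on one of the regimens. HFD mice stayed on the high-fat diet without restriction, HFD-IF mice had the same diet with fasting every other day, CC mice were moved to unrestricted control chow, and CC-IF mice had control chow with intermittent fasting. Every group had thus first eaten the same high-fat diet, and no body weights were used here. No lean mice that had never eaten it were analysed here. Neither the ages of the mice nor the fed or fasted state at collection is given in the sources used here. Poly(A) RNA from about 20 mg of whole tissue was sequenced as paired reads of 125 bases. HFD-IF livers numbered 2 and CC-IF hippocampi 3, and each other combination of regimen and tissue had 4 libraries, so 14 livers and 15 hippocampi were compared. The series describes the replicates as biological, with 32 samples planned, of which 29 were analysed here. Libraries are named below by group and by the number in their column of the table, which starts at 0.

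Interferons are secreted proteins by which cells warn their neighbours of infection. Type I interferons bind a receptor that activates the kinases JAK1 and TYK2, after which a complex that holds STAT2 and IRF9 binds the interferon-stimulated response element (ISRE) in the promoters of target genes. IRF7 and IRF5 act earlier, where they switch on interferon and inflammatory cytokine genes after nucleic acid sensors or Toll-like receptors fire, and Irf7 is itself an interferon target. In liver, resident macrophages (Kupffer cells) and other myeloid cells are a well-known site of IRF5 expression.

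The promoters of these genes differ in how many copies of the ISRE core they hold. RefSeq promoter windows of 300 bases, from 250 before to 50 after the gene start (GRCm38.p6), were matched for 8 of the 9 genes, all but Gbp6. The ISRE core was searched on both strands as GAAA, any 2 bases, then GAAA, which reads TTTC, any 2 bases, then TTTC on the other strand. It was present in 5 of the 8 windows, against 3.44% of 32851 promoter windows, and at least 2 cores were present in 4 of the 8, against 0.225%. Isg15 held 3 overlapping cores, Bst2, Ifit1 and Ifit3 held 2 each, and Rsad2 held 1. The interferon gamma-activated sequence TTCNNNGAA, which reads the same on both strands, was present in 1 of the 8 windows, that of Bst2, where it shares 3 bases with the ISRE cores, and in 8.3% of all windows. The Oasl2, Irf5 and Irf7 windows held neither, which says only that these letters are not in those windows. Below are a window with overlapping cores (Isg15, chr4:156200769-156201068, minus strand), that of the most abundant of the genes (Bst2, chr8:71537423-71537722, minus strand), one with separate cores (Ifit1, chr19:34640639-34640938, plus strand) and that of the gene with the clearest regimen change (Irf5, chr6:29526375-29526674, plus strand). Capitals mark the ISRE cores.
Isg15: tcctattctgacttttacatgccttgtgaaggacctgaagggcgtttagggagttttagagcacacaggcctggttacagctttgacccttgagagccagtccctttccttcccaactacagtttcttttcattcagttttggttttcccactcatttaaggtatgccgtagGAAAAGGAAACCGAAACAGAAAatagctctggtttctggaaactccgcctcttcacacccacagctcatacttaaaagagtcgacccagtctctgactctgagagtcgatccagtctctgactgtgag
Bst2: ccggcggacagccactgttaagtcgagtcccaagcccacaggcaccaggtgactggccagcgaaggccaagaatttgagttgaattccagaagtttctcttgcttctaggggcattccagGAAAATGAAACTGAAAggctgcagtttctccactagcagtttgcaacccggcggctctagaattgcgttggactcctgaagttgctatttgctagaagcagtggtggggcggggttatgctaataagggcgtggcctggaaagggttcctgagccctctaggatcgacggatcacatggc
Ifit1: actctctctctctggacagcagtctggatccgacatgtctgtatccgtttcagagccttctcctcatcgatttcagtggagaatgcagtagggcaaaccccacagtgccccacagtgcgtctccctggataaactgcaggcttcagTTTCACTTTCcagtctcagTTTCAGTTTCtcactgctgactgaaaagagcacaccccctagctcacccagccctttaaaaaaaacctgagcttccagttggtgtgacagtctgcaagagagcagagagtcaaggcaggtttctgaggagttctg
Irf5: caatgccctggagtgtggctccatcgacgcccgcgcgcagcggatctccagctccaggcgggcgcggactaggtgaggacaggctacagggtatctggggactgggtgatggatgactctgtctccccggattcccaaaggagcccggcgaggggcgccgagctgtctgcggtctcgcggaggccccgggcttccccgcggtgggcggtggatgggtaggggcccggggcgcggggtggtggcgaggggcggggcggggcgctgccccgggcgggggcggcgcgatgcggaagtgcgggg

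Values are FPKM, fragments scaled to transcript length and library depth, which allows levels of different genes to be compared. Changes are differences of log2(FPKM + 1) with their standard error, and a gene was called when the Benjamini-Hochberg adjusted p of limma, fitted over all genes with a mean of at least 1 FPKM in the tissue, was under 0.05. All 9 genes passed that filter in liver, among 11497 genes, and 2 of 9 (Ifit3 and Bst2) passed in hippocampus, among 12857. The step between low FPKM values gave an estimated 9300000 to 15550000 fragments per liver library and 10350000 to 36500000 per hippocampal library. Exact zeros were not reliable, since albumin (Alb), which every hepatocyte makes, was listed at 0 in 1 of 4 HFD livers, 3 of 4 CC livers and 4 of 4 CC-IF livers. The tissue labels matched their markers otherwise: summed hepatocyte markers were 17699 FPKM or more in every liver, and summed neuron markers were 2077 FPKM or more in every hippocampus. Hippocampal libraries of the same group differed widely in choroid plexus markers. Their sum was 42.7 to 1798 FPKM in HFD, 12.7 to 335 in HFD-IF, 20.9 to 1673 in CC and 21.1 to 991 in CC-IF. The hepatocyte list, which shares Ttr with that list, reached 1744.5 FPKM in HFD hippocampus. One library stood apart. HFD-IF liver library 1 was the highest of the 14 livers for 14.4% of all tested genes and the lowest for 15.5%. The next libraries were HFD library 1, highest for 12.2%, and CC-IF library 2, lowest for 10.3%. Results that rest on HFD-IF liver library 1 are given with and without it.

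Bst2 was by far the most abundant of the genes in liver and Oasl2 the least. Bst2, which encodes tetherin, a membrane protein that holds budding virus on the cell surface, averaged 114 FPKM over the 14 livers, and Irf7 averaged 21.5 FPKM. The other 7 had means from 3.01 FPKM (Oasl2) to 6.73 FPKM (Isg15). Ordered by group mean, neighbouring regimens had separate ranges in 3 of 27 cases in liver, against 9.88% over all tested genes: Irf5 in CC over CC-IF, Irf7 in CC over HFD, and Gbp6 in HFD-IF over HFD. The other liver neighbours overlapped, as the plot of liver values by regimen shows.

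**Figure D1:**
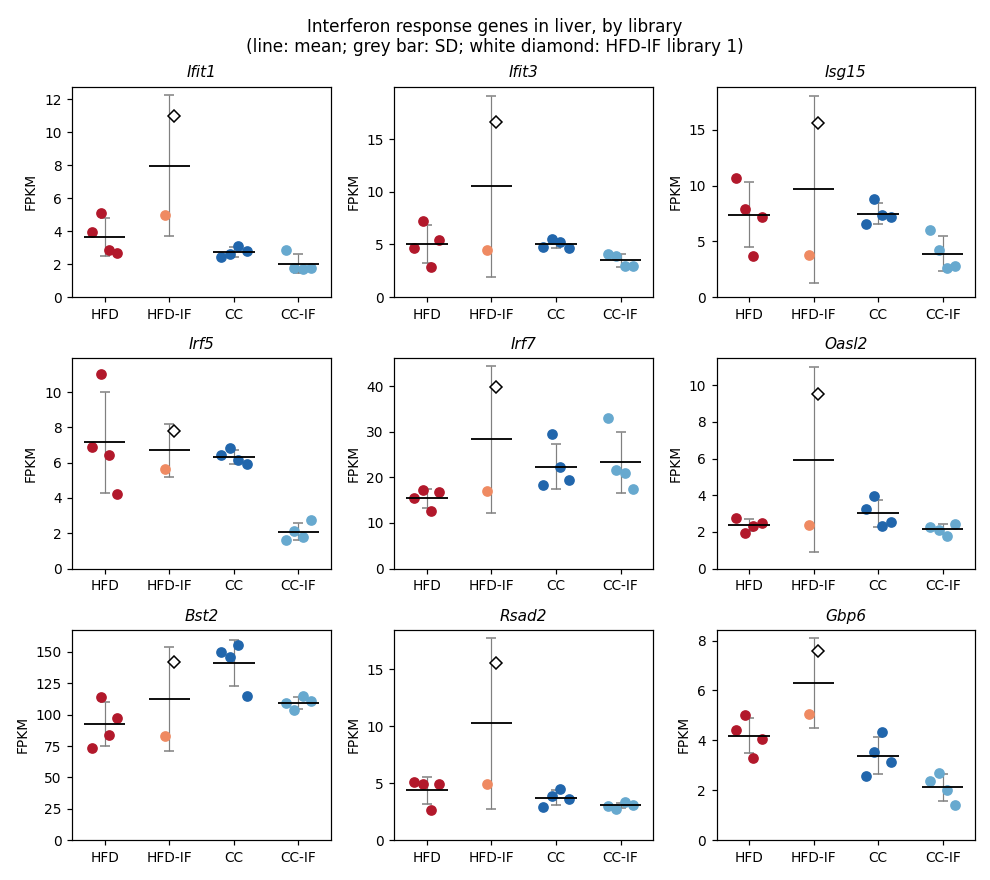
FPKM (y axis, from 0) of the 9 genes in each liver library by regimen (x axis), with the group mean as a line and the SD as a grey bar (n = 4, 2, 4 and 4). The white diamond is HFD-IF library 1, the highest liver library for 7 of the 9 genes, and the 4 CC-IF livers sit below all others for Irf5.

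Irf5 was lower in liver after intermittent fasting on control chow than after unrestricted chow. IRF5 drives inflammatory cytokine genes in myeloid cells. The 4 CC livers had 6.44, 6.84, 6.15 and 5.91 FPKM and the 4 CC-IF livers had 1.64, 2.13, 1.81 and 2.74 FPKM. Every CC-IF library was below every other liver library, since HFD livers had 6.89, 11.03, 6.43 and 4.22 FPKM and HFD-IF livers 5.62 and 7.77 FPKM. The mean fell from 6.34 ± 0.40 (SD, n = 4) to 2.08 ± 0.48 FPKM (SD, n = 4), a change of -1.26 ± 0.20 (SE) with an adjusted p of 0.00086. The call held in 21 of 21 alternatives, with changes from -1.58 to -1.19 and adjusted p from 0.000178 to 0.00383. Among the regimen comparisons this one had the most called genes, 24.0% of all tested genes (9.77% lower), and that share is the background for the members. Irf5 (chromosome 6, 29526625 to 29541871, plus strand, GENCODE M21 on GRCm38) overlaps Tnpo3 on the other strand by 1044 bases, and whether counting used strand is not given in the sources used here. Tnpo3, a nuclear import receptor gene, differed by 0.10 ± 0.09 (SE) between CC-IF and CC (adjusted p = 0.446). Its mean was 16.8 ± 0.84 FPKM in CC and 18.2 ± 2.13 FPKM in CC-IF (SD, n = 4 each).

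Gbp6 was the other gene of the group that fell with fasting on chow, though only just past the threshold. Guanylate binding proteins are GTPases, strongly induced by interferon gamma, that attack the vacuoles of intracellular pathogens. CC livers had 2.58, 3.52, 4.33 and 3.12 FPKM and CC-IF livers had 2.37, 2.68, 2.01 and 1.40 FPKM, so the ranges overlapped. The change was -0.50 ± 0.17 (SE, adjusted p = 0.048), and it was called in 11 of 21 alternatives (adjusted p 0.0192 to 0.135) and in 6 of the 14 fits that each left out 1 library. The call was lost without HFD library 0 (adjusted p = 0.0609) or 3 (0.0617), CC library 1 (0.106), 2 (0.134) or 3 (0.0656), or CC-IF library 0 (0.0624), 2 (0.0881) or 3 (0.135). The Gbp genes are close copies that lie side by side, and Gbp6 (chromosome 5, 105270702 to 105293698, minus strand) lies on another gene model of the same strand, Gm43302, so its level is uncertain. Its relative Gbp10 changed by -0.49 ± 0.23 (SE, adjusted p = 0.145).

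Of the 9 genes, 8 had a negative change from CC to CC-IF, with a median of -0.355 against 0.0221 over all tested genes. Isg15, which encodes a ubiquitin-like protein attached to other proteins, had 6.54, 8.77, 7.34 and 7.18 FPKM in CC and 6.02, 4.20, 2.61 and 2.76 FPKM in CC-IF. Its groups did not overlap, yet its change of -0.84 ± 0.36 (SE) had an adjusted p of 0.1102. It was called in 4 of 21 alternatives. These were only the groups compared (adjusted p = 0.0173), library weights (0.0363), and the fits without HFD-IF liver library 0 or 1. In both of the latter the change was again -0.84. Ifit3, whose protein belongs to a family that binds foreign RNA, also did not overlap. It had 4.76, 5.55, 5.26 and 4.69 FPKM in CC and 4.07, 3.89, 2.98 and 2.97 FPKM in CC-IF (-0.45 ± 0.30, SE, adjusted p = 0.306). Ifit3 has a close copy, Ifit3b, with which it may share reads. Non-overlapping lower groups, seen in 3 of the 9 (Irf5, Isg15 and Ifit3), were seen in 11.4% of all tested genes. Irf7 had the one positive change, 0.04 ± 0.24 (SE, adjusted p = 0.931).

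Kupffer cell markers were lower as a sum in this comparison. Their summed level was 169 to 254 FPKM in CC livers and 96.5 to 135 FPKM in CC-IF livers, without overlap. Of single genes, 11.4% were lower without overlap. Called lower were 2 of 8 markers, against 9.77% of all genes, and 0 were called higher, with a median change of -0.64. The sum over 11 markers of infiltrating and lipid-associated macrophages was 107 to 139 FPKM in CC and 68.1 to 119 FPKM in CC-IF, and that over 6 MHC class II genes was 118 to 163 and 68.3 to 148 FPKM. None of these markers was listed at 0 in every library of either group. Their part in the lower Irf5 was not tested, and in whole tissue fewer cells of a type and less RNA per cell cannot be told apart.

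Moving mice from high-fat diet to chow gave no called change in any of the 9 genes, against 2.3% of all tested genes, with 1 of 9 at an unadjusted p under 0.05 (18.7% of all genes). Bst2 came nearest. HFD livers had 73.7, 114, 83.9 and 97.0 FPKM and CC livers 150, 146, 155 and 115 FPKM, so every CC library lay above every HFD library, the closest pair being 114.4 and 114.6 FPKM. The change was 0.62 ± 0.17 (SE) with an adjusted p of 0.069, and it was called without HFD-IF liver library 1 (adjusted p = 0.0220), without HFD-IF liver library 0 (0.0224), without HFD liver library 1 (0.0472) and with library weights (0.00557). Irf7 was the other gene whose groups did not overlap, with 15.4, 17.2, 12.5 and 16.7 FPKM in HFD and 18.3, 29.4, 22.4 and 19.4 FPKM in CC (0.49 ± 0.24, SE, adjusted p = 0.302). Groups that did not overlap and were higher in CC made up 4.6% of all tested genes. The median change of the 9 genes was 0.0515, against -0.0162 over all genes.

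In HFD-IF livers the values split between the libraries. Library 0 and library 1 had 4.97 and 10.98 FPKM of Ifit1, 4.47 and 16.6 FPKM of Ifit3, and 3.74 and 15.6 FPKM of Isg15. For Oasl2, a relative of the enzymes that sense double-stranded RNA, they had 2.37 and 9.50 FPKM, and for Rsad2, which encodes viperin, an enzyme that makes a chain-terminating nucleotide, 4.96 and 15.5 FPKM. For Irf7 they had 16.97 and 39.8 FPKM, for Bst2 82.9 and 142 FPKM, and for Gbp6 5.04 and 7.57 FPKM. Library 1 was the highest of the 14 livers for 7 of the 9 genes, against 14.4% of all genes. The exceptions were Irf5, highest in HFD library 1, and Bst2, highest in CC library 2. The ratio of library 1 to library 0 ran from 1.38 (Irf5) to 4.17 (Isg15) with a median of 2.34, against 0.960 over all tested genes, and 6 of 9 genes were at least 2-fold higher, against 8.94%. The genes were compared library by library because 1 HFD-IF liver column was already known to be high. These shares therefore describe the library and are not a test.

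**Figure D2:**
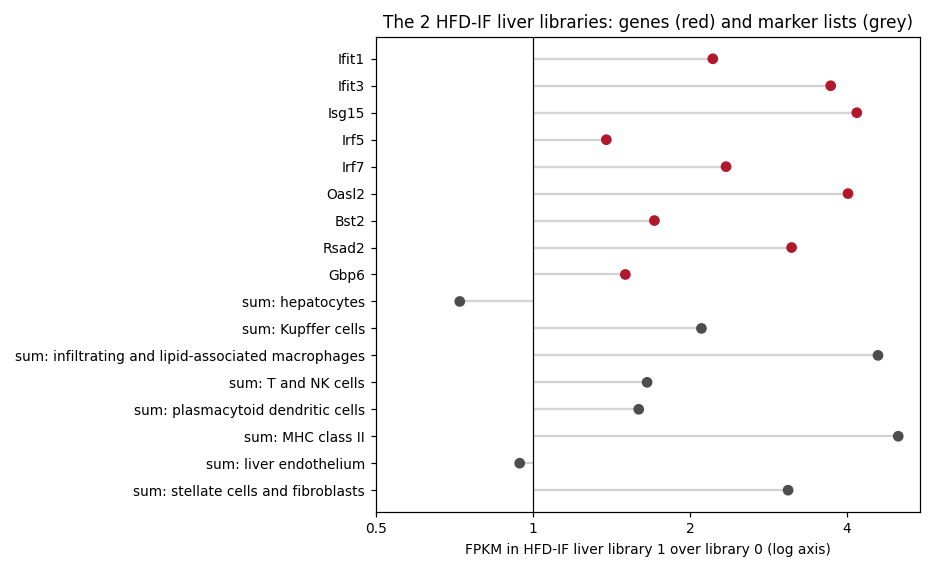
Ratio of FPKM in HFD-IF liver library 1 to library 0 (x axis, log scale) for each of the 9 genes (red) and for summed marker lists (grey). All 9 genes lie above 1, from 1.38 to 4.17, and so do macrophage, MHC class II and stellate cell sums, while hepatocyte and liver endothelium sums lie below 1.

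Several lists of markers of other cells were high in the same library, and others were low. Its summed Kupffer markers were 285 FPKM, against 96.5 to 258 in the other 13 livers, with 5 of 8 markers highest there. The macrophage list reached 328 FPKM (68.1 to 139 elsewhere, 9 of 11 highest), MHC class II genes 430 FPKM (68.3 to 163, 6 of 6 highest), and stellate cell and fibroblast markers 526 FPKM (143 to 253, 8 of 10 highest). T and NK cell markers summed to 5.78 FPKM (1.24 to 3.95) and plasmacytoid dendritic cell markers to 9.62 FPKM, second to 11.98. Hepatocyte markers summed to 44150 FPKM, against 60981 FPKM in HFD-IF library 0 and 17699 to 65722 over all the others. That range is a poor guide, since the sum includes Alb, listed at 0 in 1 HFD, 3 CC and 4 CC-IF livers. The choroid plexus list, which shares Ttr with the hepatocyte list, summed to 2996 FPKM in HFD-IF library 1. That was the lowest of the 14 livers, against 5101 to 8486 FPKM elsewhere. The astrocyte list and the brain endothelium and pericyte list were also lowest in that library. Liver endothelium markers summed to 128 FPKM there, rank 13 of 14 (124 to 177 elsewhere). The part of these markers in the high interferon response genes was not tested.

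No member was called between HFD-IF and HFD livers, against 1.32% of all genes, although 8 of 9 changes were positive with a median of 0.727 and for 5 the p before adjustment was under 0.05 (17.8% of all genes). The HFD livers had 3.95, 5.12, 2.83 and 2.66 FPKM of Ifit1, 5.12, 4.90, 2.61 and 4.90 FPKM of Rsad2 and 2.77, 1.96, 2.305 and 2.50 FPKM of Oasl2, so HFD-IF library 0 lay within the HFD range for all of these. The largest positive changes were 0.91 ± 0.32 for Rsad2 (SE, adjusted p = 0.163) and 0.90 ± 0.26 for Ifit1 (SE, adjusted p = 0.111). Without HFD-IF library 1 the median change was -0.0023, with 4 of 9 positive and 0 called. Without library 0 the median was 1.32 and 5 of 9 were called, as were 14.2% of all genes. In either case the one library left in its group was assumed to vary like the other groups. Only Gbp6 had separate groups, with 4.43, 5.004, 3.31 and 4.03 FPKM in HFD, HFD-IF library 0 just above at 5.04 FPKM and library 1 further above at 7.57 FPKM. Separate groups higher in HFD-IF made up 9.4% of all genes.

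Between the fasted groups, 3 of the 9 genes were lower in CC-IF than in HFD-IF liver, against 0.2% of all genes called lower (0.591% in either direction). They were Ifit1 (-1.505 ± 0.26, SE, adjusted p = 0.0399), Irf5 (-1.32 ± 0.25, adjusted p = 0.0443) and Gbp6 (-1.23 ± 0.21, adjusted p = 0.0397). Ifit1 had 2.87, 1.75, 1.68 and 1.76 FPKM in CC-IF, all below both HFD-IF libraries. Groups without overlap, lower in CC-IF, were seen for Ifit1, Ifit3, Irf5, Rsad2 and Gbp6 and for 8.61% of all tested genes. The median change of the 9 genes was -1.14. Without HFD-IF library 1 none of the 9 was called (5 genes in all, 0.0439%) and the median was -0.299. The change of Irf5 was then -1.12 ± 0.32 (SE, adjusted p = 0.217), that of Gbp6 -0.97 ± 0.25 (adjusted p = 0.180) and that of Ifit1 -1.002 ± 0.27 (adjusted p = 0.194). Without library 0, 7 of 9 were called, as were 15.4% of all genes. Other single libraries also ended these calls, by smaller margins than library 1: Gbp6 was called in 8, Ifit1 in 3 and Irf5 in 3 of 14 such fits. Ifit1 and Irf5 each lost the call without any 1 of the CC or CC-IF libraries (adjusted p 0.0507 to 0.103 and 0.0542 to 0.0853) or without HFD library 0 or 2 (0.0504 to 0.0598 for both genes), and Gbp6 without CC library 1 or any 1 CC-IF library (0.0526 to 0.0801). All 3 calls were also lost with no filter on low values (adjusted p 0.0540 to 0.0605), with only the groups compared (0.139 to 0.210), with library weights (0.548) and with the replicate block (0.0876 to 0.132).

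Whether fasting acted differently on the diets was asked with the interaction, the fasting change on chow minus that on high-fat diet. All 9 estimates were negative, with a median of -1.12 against 0.0364 over all genes, and for 7 of 9 the p before adjustment was under 0.05 (18.3% of all genes), but 0 were called after adjustment (1.11% of all genes). Irf5 came nearest at -1.23 ± 0.32 (SE, adjusted p = 0.080), and it was called without HFD library 1 (-1.44 ± 0.25, SE, adjusted p = 0.0256). Without HFD-IF library 1 the median was -0.350 with 0 called, and without library 0 it was -1.72 with 9 called, as were 15.4% of all genes. The liver comparisons share groups and are not independent of each other.

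**Figure D3:**
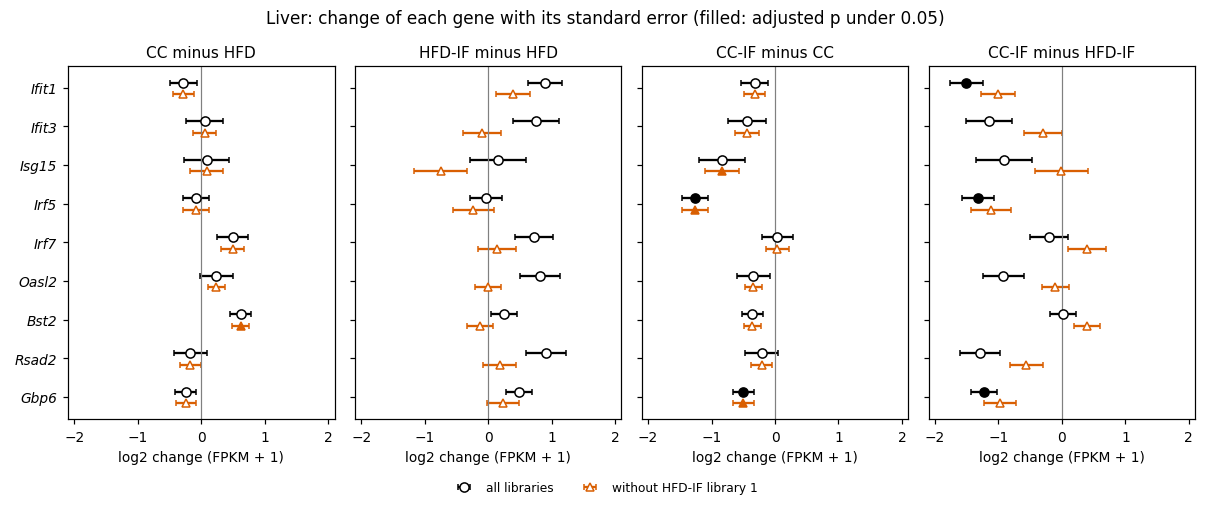
Difference of log2(FPKM + 1) (x axis) with its standard error for each gene in 4 liver comparisons, from all 14 libraries (black circles) and without HFD-IF library 1 (orange triangles), filled where the adjusted p is under 0.05. Irf5 and Gbp6 are filled in both fits for CC-IF minus CC, and the filled circles for CC-IF minus HFD-IF are open triangles once that library is left out.

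The rest of the interferon pathway in liver was followed through 129 other genes in 7 lists, of which 99 were tested. Between CC-IF and CC, 3 were called higher and 13 lower, and 81 of 99 changes were negative with a median of -0.22. Thus 16 of 99 were called, against 24.0% of all genes. Without HFD-IF library 1 the median was again -0.22. Over all settings the lower count ran from 6 to 28, and the share of all genes called moved between settings too. Among ligands, Ifna1, Ifna2, Ifnb1, Ifnl2 and Ifnl3 were listed at 0 in all 29 libraries, Ifna4 reached 0.144 FPKM in 1 liver and Ifng 0.126 FPKM with values above 0 in 4 livers. Ifnk was above 0 in 14 of 14 livers, up to 3.09 FPKM.

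Receptors and signal transducers split in direction. Ifngr2 and Ifnar2, which encode chains of the interferon gamma and type I interferon receptors, rose from 10.1 ± 0.85 to 15.8 ± 1.96 FPKM and from 50.6 ± 5.44 to 64.4 ± 4.77 FPKM (SD, n = 4 each, adjusted p = 0.0063 and 0.022). Ifngr1, the other interferon gamma receptor chain, fell from 12.1 ± 1.46 to 8.71 ± 1.39 FPKM (adjusted p = 0.031). Stat2 fell from 22.3 ± 2.49 to 15.9 ± 0.93 FPKM (adjusted p = 0.0067). Of the 13 tested sensors and adaptors, 2 fell, against 9.77% of all genes called lower. Ikbke, a kinase that activates IRF3 and IRF7, went from 10.5 ± 1.75 to 5.03 ± 0.99 FPKM, and Dhx58, an RNA sensor, from 3.98 ± 0.67 to 2.22 ± 0.43 FPKM (adjusted p = 0.0011 and 0.022). None of the 5 other interferon regulatory factor genes tested was called.

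Of 43 other type I interferon targets tested, 7 fell and 0 rose from CC to CC-IF, with a median of -0.26, where 9.77% of all genes were called lower. Ifitm3, whose membrane protein blocks virus entry, fell from 728 ± 114 to 390 ± 27.5 FPKM (SD, n = 4 each, -0.89 ± 0.13 SE, adjusted p = 0.00047). Ly6e fell from 149 ± 22.9 to 69.2 ± 9.49 FPKM (adjusted p = 0.027), Isg20, an exonuclease gene, from 6.02 ± 1.42 to 3.05 ± 0.54 FPKM (adjusted p = 0.0039) and Ifi35 from 15.3 ± 1.15 to 11.3 ± 1.23 FPKM (adjusted p = 0.015). Of 22 interferon gamma targets and GTPases, Gbp4 fell to 0.938 ± 0.18 from 1.59 ± 0.23 FPKM, and Nlrc5, which drives MHC class I genes, rose to 6.82 ± 1.49 from 4.52 ± 0.51 FPKM (adjusted p = 0.025 and 0.021). Of the pathway genes named here, Ifitm3, Isg20, Ifi35, Ikbke, Stat2 and Ifngr2 were called in 21 of 21 alternatives, Dhx58 in 19, Nlrc5 in 18, Ifnar2 and Gbp4 in 17, Ly6e in 14 and Ifngr1 in 13, each with its direction kept.

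Trex1, a DNA exonuclease gene that limits interferon induction by cytosolic DNA, was the one pathway gene called for fasting on high-fat diet, 1 of 99 against 1.32% of all genes. It averaged 8.37 ± 0.43 FPKM in HFD (SD, n = 4) and 11.8 ± 1.40 FPKM in HFD-IF (SD, n = 2), with single libraries at 8.10 to 9.01 and at 10.8 and 12.8 FPKM. It rose by 0.45 ± 0.10 (SE, adjusted p = 0.045) on high-fat diet and fell by 0.24 ± 0.08 on chow, from 9.31 ± 0.74 to 7.70 ± 0.59 FPKM (adjusted p = 0.043). These calls were close to the threshold: the rise was called in 4 of 21 alternatives (adjusted p 0.0416 to 0.477) and the fall in 9 of 21. The interaction was -0.69 ± 0.13 (SE, adjusted p = 0.030), called in 12 of 20 alternatives, and without HFD-IF library 1 it was -0.80 ± 0.14 (adjusted p = 0.046), while the rise on high-fat diet then was 0.56 ± 0.12 with an adjusted p of 0.102. Dtx3l was the one pathway gene called between CC and HFD (1 of 99, against 2.3% of all genes), lower in CC (18.7 ± 0.58 against 24.7 ± 2.45 FPKM, SD, n = 4 each, adjusted p = 0.028, called in 14 of 21 alternatives). The pathway changes depended on which HFD-IF library was kept. From HFD to HFD-IF the median change was 0.165 with both, 0.338 without library 0 and -0.064 without library 1. From HFD-IF to CC-IF it was -0.407, -0.712 and -0.131 in the same order. For the interaction it was -0.421, -0.642 and -0.148. With both libraries, 1 of 99 was called in each of these (1.32%, 0.591% and 1.11% of all genes). HFD-IF library 1 was the highest liver for 55 of the 99 pathway genes tested (55.6%), against 14.4% of all tested genes. The pathway lists, too, were chosen with earlier results of these data known, so this share is a description.

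The 9 genes did not vary as one block in liver. Over the 36 pairs the median Spearman correlation across 14 livers was 0.486, from -0.160 to 0.886, and it was 0.368 without HFD-IF library 1. Gbp6 followed the others most closely, with a median of 0.681 over its 8 pairs, and Irf7 least, with 0.044. These points share library, depth and regimen, so the values are descriptions. The genes outside the group whose values ran most like the mean log2(FPKM + 1) of the 9 across 14 livers were Lyn (Spearman 0.947), Clec4f (0.912), Msr1 (0.912), Lgmn (0.903), Crip2 (0.899) and Ifi47 (0.895). Without HFD-IF library 1 the first 6 included Pdgfc (0.967), Lyn (0.934), Smagp, Nufip1 and Hcfc1, and Lyn alone stood in both lists.

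All 9 genes were higher in liver than in hippocampus, with every liver library above every hippocampal one, a separation seen in 23.1% of 20348 genes. The ratio of tissue means was smallest for Ifit3 (3.48, from 5.39 and 1.55 FPKM) and largest for Bst2 (74.9, from 114 and 1.52 FPKM), with Irf7 next (51.3, from 21.5 and 0.419 FPKM). For Ifit3 and Bst2, which passed the filter in both tissues, the difference was called in all 4 regimens, where 79.6% (HFD), 75.8% (HFD-IF), 80.2% (CC) and 79.0% (CC-IF) of 9939 genes were called in either direction. It ran from 5.23 to 5.86 for Bst2 and from 0.92 to 1.81 for Ifit3. Without the filter all 9 were called in each regimen. The shares above belong to the filtered fit, and the share of all genes called without the filter is not given here. The labels do not say whether liver and hippocampus came from the same mice, and the fit treats the libraries as separate.

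**Figure D4:**
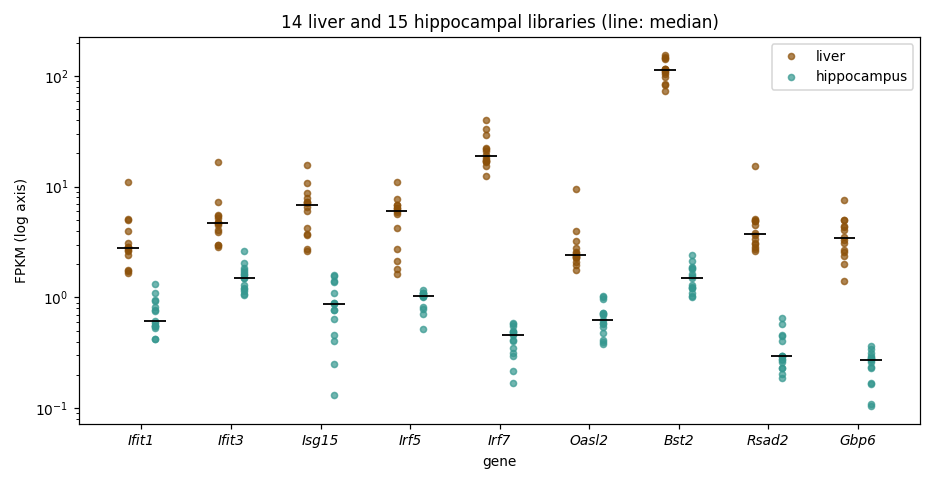
FPKM (y axis, log scale) of each gene (x axis) in 14 liver (brown) and 15 hippocampal (teal) libraries, with the median as a line. The tissues do not overlap for any of the 9 genes, and the gap is widest for Bst2 and Irf7.

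In hippocampus the levels were low, and no regimen change was called. Means over 15 libraries ran from 0.247 FPKM (Gbp6) to 1.55 FPKM (Ifit3), and Isg15 rested on an estimated 1.2 to 34.0 fragments per library. Ifit3 had 1.5 to 1.85 FPKM in HFD, 1.07 to 2.63 in HFD-IF, 1.06 to 1.59 in CC and 1.19 to 1.71 in CC-IF. Bst2 had 1.21 to 1.82, 1.09 to 2.12, 1.02 to 2.40 and 1.21 to 1.64 FPKM in the same order, and all groups of both genes overlapped. For these the changes lay between -0.24 and 0.14 over the 4 comparisons, none called, with 0 of 2 at an unadjusted p under 0.05. Called genes were 0.0% of all tested genes in 3 comparisons and the interaction, and 0.00778% (1 gene) between CC-IF and CC, and genes at an unadjusted p under 0.05 were 3.56% for CC against HFD, 7.6% for HFD-IF against HFD, 6.39% for CC-IF against CC, 2.98% for CC-IF against HFD-IF and 3.39% for the interaction. None of the 48 other pathway genes tested there was called in any comparison.

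Irf5, which stood out in liver, had 1.18, 1.07, 1.04 and 1.01 FPKM in CC and 0.794, 0.705 and 1.04 FPKM in CC-IF hippocampus, and 0.518 to 1.03 FPKM in HFD and 1.03 to 1.10 FPKM in HFD-IF. It passed only without the filter, where its CC-IF change was -0.17 ± 0.09 (SE, adjusted p = 0.902). In a separate unfiltered limma fit over both tissues, the CC to CC-IF change of Irf5 was -1.09 ± 0.24 in liver minus hippocampus (SE, adjusted p = 0.0047). The share of all genes called in that fit is not given here. In hippocampus log2(FPKM + 1) compresses changes at such low levels. With the filter, neither Ifit3 nor Bst2 differed between tissues in a regimen change (adjusted p 0.195 to 0.883, with 1.39% of 9939 genes called for CC against HFD, 1.63% for HFD-IF against HFD and 13.8% for CC-IF against CC), which does not show that the changes were alike.

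**Figure D5:**
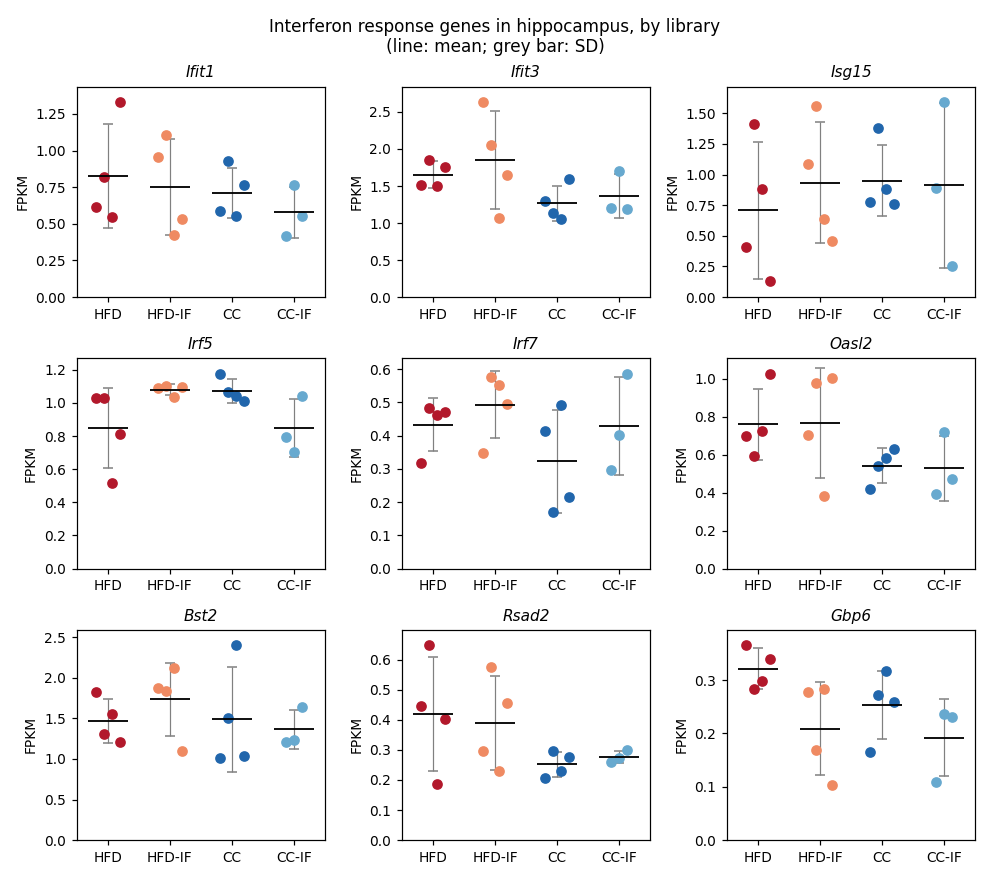
FPKM (y axis, from 0) of the 9 genes in each hippocampal library by regimen (x axis), with the group mean as a line and the SD as a grey bar (n = 4, 4, 4 and 3). The highest value is 2.63 FPKM, for Ifit3, and libraries of one group often differ as much as the groups do.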

How the data were processed

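RNA-seq of liver and hippocampus was analysed from 1 table of 24346 genes, deposited by the authors in FPKM. Per the labels' protocols, poly(A) RNA (1 µg of total RNA) was made into stranded TruSeq libraries. Per the submitters' processing notes, reads were handled with Trimmomatic 0.39, FastQC 0.11.9, Bowtie2 2.3.5.1 and TopHat2 2.1.1 on GRCm38/mm10. Which program and annotation gave the FPKM values is not stated there. Columns count from 0 and sample titles from 1, so columns were matched to groups only, and libraries kept their column numbers.

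From these values log2(FPKM + 1) was fitted per tissue over 4 regimens with limma 3.58.1 (R 4.3.3, intensity trend), on genes with a mean of at least 1 FPKM, with Benjamini-Hochberg adjustment over all of them. The liver against hippocampus fit used 9939 genes kept in both tissues. Depth is an estimate: 65.6% to 73.6% of low liver values and 54.1% to 71.2% of hippocampal ones lay within 0.2 of a whole fragment (40% by chance), so no count test was run. All 40 replicate pairs differed in at least 99.994% of genes (Pearson 0.953 to 0.984). The steps were tested on simulated data. The members and the pathway and marker lists were chosen with earlier results of these data known. Named genes are the 9 members, up to 4 called genes with the smallest p per pathway list and comparison, and the 6 genes most like the members' mean per tissue, one of which is not reported here. Alternatives were a pseudocount of 0.1, no filter, median-ratio scaling, only the groups compared, no trend, library weights, a replicate block and leaving out each library. Promoters are from RefSeq and gene positions from GENCODE M21.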

Additional observations from a re-analysis of the deposited data

Results flagged for a closer look

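Among 54 groups of 4 libraries examined, 4 held a library far from the others (a gap to the nearest library, divided by the group's range, above Dixon's critical value), where chance gives about 1 in 20. In CC-IF liver, Ifit1 was 2.87 FPKM in library 0 and 1.68 to 1.76 FPKM in the others. In HFD liver, Rsad2 was 2.61 FPKM in library 2 and 4.90 to 5.12 FPKM in the others. In HFD-IF hippocampus, Irf5 was 1.03 FPKM in library 2 and 1.09 to 1.10 FPKM in the others. In HFD hippocampus, Irf7 was 0.317 FPKM in library 0 and 0.462 to 0.485 FPKM in the others. The HFD-IF livers were too few to be examined this way.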

How the results depend on the processing

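Of the 9 genes in liver, the number called between CC and HFD (0) was 1 with library weights and 0 to 1 when single libraries were left out. That between HFD-IF and HFD (0) was 0 to 5, that between CC-IF and CC (2) was 1 with no filter, 4 with only the groups compared, 4 with library weights and 1 to 3 with libraries left out, and that between CC-IF and HFD-IF (3) was 0 with no filter, only the groups compared, library weights or the replicate block, and 0 to 7 with libraries left out. The interaction (0) gave 0 to 9 with libraries left out, and no fit with only the groups compared exists for it. In hippocampus no setting called Ifit3 or Bst2. Without the filter the liver and hippocampus difference was called for 9 genes in each regimen instead of 2, and the tissue difference of the CC-IF change for 1 (Irf5) instead of 0. The share of all genes called moved between settings too, so these counts alone are not a result about the 9 genes. In the main liver fit it was 2.3% for CC against HFD, 1.32% for HFD-IF against HFD and 24.0% for CC-IF against CC. For CC-IF against HFD-IF it was 0.591%, and for the interaction 1.11%. The cause of these moves was not tested, except that unfiltered fits test more genes. No called value changed sign in 1224 alternatives, and 41 uncalled ones did. The column numbers were not taken to pair the libraries, since not every same-numbered pair correlated over 0.1 in its deviations: 3 of 18 liver pairs (-0.159 to 0.335) and 8 of 21 hippocampal pairs (-0.153 to 0.278) did, against 7 of 54 and 7 of 63 with different numbers. As a hint from the data, 6 of 14 livers and 8 of 15 hippocampi correlated best with their own number. Asking every pair to pass is a strict rule, and whether same-numbered libraries share a batch was not tested. The replicate block moved the other counts by 0. HFD-IF livers numbered 2, 7 of the 9 genes were below the filter in hippocampus, and the smallest detectable change was not measured.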
